A study of Mus musculus with 27 samples.

Results

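The step from day 1 blast culture to sorted smooth muscle cells was measured in untreated cells. Untreated SM cells (3 arrays) were set against untreated day 1 blast culture (d1 BC, 2 arrays). These 5 of 27 arrays were chosen by their labels for cell type and treatment, with all genes included. All cells came from mouse A2lox embryonic stem cells (ESCs) whose Hprt locus carried a Flag-tagged dominant-negative FOS under the control of doxycycline (DOX), the dnFOS line. The cassette was present in both groups, but neither was given DOX. The ESCs were picked as clones and grown on inactivated mouse embryonic fibroblasts, and how many clones were used on the arrays is not given in the sources used here. Embryoid bodies were grown for 3.75 days, and FLK1+ cells were enriched with magnetic beads and plated with IL-6 and VEGF as a blast culture. The d1 BC arrays held the complete culture after 24 h. The SM arrays held cells isolated by FACS after 48 h, by a gate that is not given in the sources used here. The groups therefore differed in time in culture and in sorting as well as in cell type, and these cannot be told apart.

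Vascular smooth muscle cells form the contractile wall of vessels. They use smooth muscle actin and myosin with their regulators (Acta2, Tagln, Cnn1, Myh11), and they deposit collagen and other matrix around the vessel. In blast cultures, FLK1+ hemangioblast cells give rise to smooth muscle, endothelial and blood cells side by side. Transcription of contractile genes is known to depend on SRF and its partner myocardin, which act at CArG boxes.

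RNA was hybridised to one-colour Agilent arrays, so that each value is the brightness of 1 probe. Each level is on the log2 scale relative to the signal at the 75th percentile of its own array, and a level of 0 is thus that percentile. They compare arrays for 1 gene and not genes with each other. Calls required, in limma, a Benjamini-Hochberg adjusted p under 0.05 over all genes tested and a change of at least 2-fold, and "rose" and "fell" are used of called genes only. On the 5 arrays that percentile lay between 199 and 628 units of scanner signal. SM replicate 2 stood apart. On this array 89.6% of probes were above background, the highest of all 27 arrays (47.0% to 89.6%), against 53.4% to 67.0% on the other 4. Correlations across the genes tested, with 1 probe each, were 0.969 between the d1 BC arrays and 0.917 to 0.955 between the SM arrays. Between arrays of the 2 groups they were 0.922 to 0.965, so that the ranges overlapped. SM replicate 3 was closer to SM replicate 1 (0.955) than to d1 BC (0.934 and 0.928). SM replicate 1 was closer to d1 BC (0.958 and 0.965) than to either SM array. For SM replicate 2 the values were 0.934 and 0.917 to SM and 0.947 and 0.922 to d1 BC. SM replicate 1 and d1 BC replicate 2 were on the same slide, and SM replicate 2 and d1 BC replicate 1 were scanned on the same day. Nothing in the labels says whether replicates came from separate cultures, so that the spread behind the p-values may be technical. That spread was taken over the 13 groups of all 27 arrays, DOX-treated ones included (14 residual degrees of freedom). In RNA from many cells, fewer cells of a type and less RNA per cell cannot be told apart.

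Of 23106 genes tested, 62 (0.268%) rose from d1 BC to SM and 9 (0.039%) fell. With untreated arrays alone 42 rose and 4 fell, and with the 5 arrays alone limma called 0, with 1576 at an unadjusted p under 0.05. Rises among genes with a symbol included those of Hbb-y, an embryonic globin, Pnoc, the precursor of nociceptin, and the matrix, interferon and signalling genes described below. The falls included those of Myl7, the atrial myosin light chain, and of Nxph2, a neurexophilin that was above background on no SM array. At an unadjusted p under 0.05 there were 1600 of the 23106 genes. The SM arrays lay wholly above both d1 BC arrays for 13.7% of all genes tested and wholly below for 9.61%. All 71 called genes were separate in this way and differed by at least 2-fold within the shared slide and within the shared scan day, but they were called on these same arrays, so that this adds no support. The median log2 difference over all genes tested was 0.02, with a median SE of 0.60, so that only large differences could be called. Rises made up 87.3% of the calls, but 76.5% with the normexp background, 66.2% with quantile normalization, 54.5% with scaling by the median, 64.9% in the authors' processed values, 76.0% with probes above background in both groups and 27.6% without d1 BC replicate 1. Each of the 5 arrays weighed on the counts, which were 21 rises and 55 falls without d1 BC replicate 1, 13 and 10 without d1 BC replicate 2, 41 and 6 without SM replicate 1, 78 and 16 without SM replicate 2, and 29 and 4 without SM replicate 3. Col1a2, Pnoc, Adamtsl1, Lilrb4a, Myo1f, Adgrg5 and Nxph2 were called in all 5 of these fits, 22 of the 71 called genes in 1 and 8 in none. Of the genes called in all 5, only Col1a2 was above background on every array of both groups. Pnoc, Adamtsl1, Lilrb4a, Myo1f and Adgrg5 entered the test only through SM, and Nxph2 only through d1 BC.

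**Figure D1:**
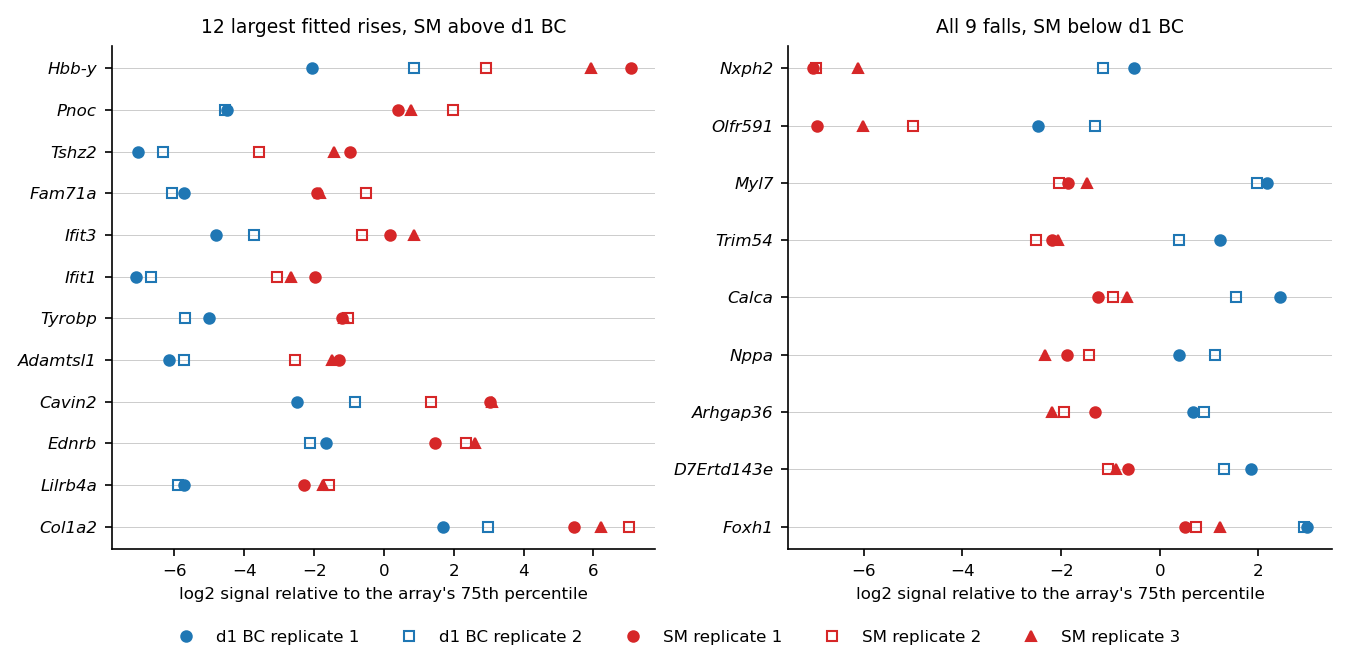
Log2 signal relative to the 75th percentile of the array (x axis) on each of the 2 d1 BC arrays (blue) and 3 SM arrays (red), for the called genes with a symbol with the 12 largest fitted rises (left) and all 9 falls (right). Adamtsl1, Fam71a, Ifit1, Lilrb4a, Tshz2 and Tyrobp were above background on no d1 BC array, so only bounds are known for them and their order is not. In every row the red points lie on 1 side of both blue points, and Hbb-y shows the widest spread within SM, from 2.92 to 7.07.

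No contractile gene of smooth muscle was called. Of 20 genes on the contractile list, 17 were tested with limma and 0 were called, against 0.307% of all genes. At an unadjusted p under 0.05 there was 1, Itga8. The median log2 difference of the 17 was -0.47, with 6 above 0 and 11 below, beside 0.02 over all genes. This median was negative under every scaling tried, from -0.93 to -0.40, but 0.02 between the arrays of the shared slide. In the refits with other settings the single call on this list was Itga8, with array quality weights.

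Acta2, smooth muscle alpha actin, had log2 levels of 9.26 and 8.91 in d1 BC and of 9.79, 9.84 and 9.10 in SM. Tagln, the actin-binding protein SM22alpha, had log2 levels of 9.84 and 8.95 in d1 BC and of 9.25, 9.97 and 8.48 in SM. The groups overlapped for both genes, with a log2 difference of 0.49 (SE 0.59, adjusted p = 0.981) for Acta2 and of -0.17 (SE 0.84, adjusted p = 0.993) for Tagln. Cnn1, calponin, had log2 levels of 6.67 and 6.20 in d1 BC and of 4.43, 5.27 and 4.77 in SM. Myl9, the regulatory light chain of smooth muscle myosin, had log2 levels of 7.01 and 6.83 in d1 BC and of 5.21, 6.14 and 5.01 in SM. All 3 SM arrays were below both d1 BC arrays for Cnn1 (log2 difference -1.61, SE 1.07, adjusted p = 0.927) and for Myl9 (-1.46, SE 0.98, adjusted p = 0.927), and neither was called. Myh11, the smooth muscle myosin heavy chain, had log2 levels of -2.43 and -0.9998 in d1 BC and of -3.39, -2.74 and -3.13 in SM, all above background (log2 difference -1.37, SE 0.75, adjusted p = 0.815). Tropomyosin 1 (Tpm1) was at 8.06 and 7.32 in d1 BC and at 6.79, 6.57 and 6.53 in SM on the log2 scale (difference -1.06, adjusted p = 0.820). Itga8, the alpha 8 integrin of smooth muscle, stood at the other end with log2 levels of -2.16 and -1.30 in d1 BC and of 1.22, -0.73 and 1.13 in SM (log2 difference 2.27, SE 0.71, adjusted p = 0.267). The summed signal of 6 smooth muscle markers, in units of the 75th percentile, was 1785 and 1182 in d1 BC and 1560, 2044 and 975 in SM, and the groups overlapped. All 6 markers were above background on all 5 arrays.

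Of 12 tested regulators of smooth muscle genes, limma called 0 (1 at an unadjusted p under 0.05), and the median log2 difference was 0.52. It was 0.05 with 6 of 12 above 0 after scaling by the median, and 0.02 with slide as a fixed block. Srf had log2 levels of 4.55 and 4.15 in d1 BC and of 2.97, 3.89 and 2.29 in SM (log2 difference -1.30, SE 0.75, adjusted p = 0.860). Myocd, myocardin, had log2 levels of -0.61 and -0.81 in d1 BC and of -0.88, -0.29 and -0.77 in SM (log2 difference 0.06, SE 0.61). Prrx1, a mesenchymal homeobox gene, was above background on no d1 BC array and on all 3 SM arrays, at least 4.08-fold higher in SM but not called (adjusted p = 0.411).

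The 1 call among collagen genes was Col1a2, the alpha 2 chain of type I collagen. It had log2 levels of 1.70 and 2.97 in d1 BC and of 5.45, 7.02 and 6.22 in SM. It rose by 3.90 on the log2 scale (SE 0.54, adjusted p = 0.00264), and it was called in every other fit but that of the 2 groups alone, which called no gene. Of 16 tested collagens it was the 1 called, against 0.307% of all genes. The log2 difference was above 0 for 13 of the 16, as for 11838 of all 23106 genes. For 5 of the 16 all SM arrays were above both d1 BC arrays, against 13.7% of all genes. The median log2 difference of the 16 was 0.67, but 0.21 with 10 above 0 after scaling by the median. Col3a1, the fibrillar collagen of vessel walls, had log2 levels of -0.59 and 0.15 in d1 BC and of 4.68, 2.39 and 5.70 in SM (log2 difference 4.47, SE 0.97, adjusted p = 0.0629). It was not called here, but it was without SM replicate 2, with slide or scan day as a block and with the normexp background. Col1a1, the partner chain of Col1a2 in type I collagen, had log2 levels of 4.67 and 4.56 in d1 BC and of 5.60, 4.27 and 5.86 in SM (log2 difference 0.63, SE 1.25), and the groups overlapped. The basement membrane chains Col4a1 and Col4a2 had log2 differences of -0.10 and -0.20.

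**Figure D2:**
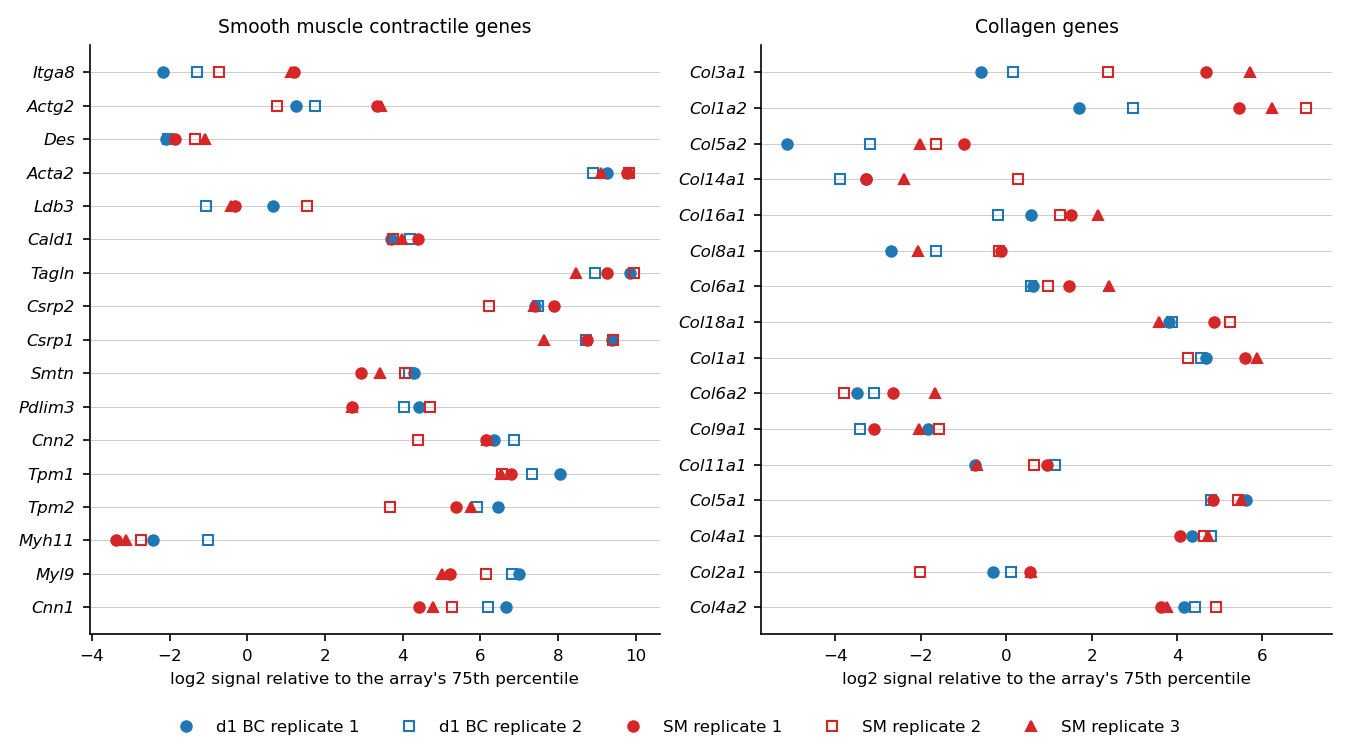
Log2 signal relative to the 75th percentile of the array (x axis) for the 17 tested contractile genes (left) and the 16 tested collagens (right), with d1 BC arrays in blue and SM arrays in red, ordered by the difference. The difference was below 0 for 11 of the 17 contractile genes and above 0 for 13 of the 16 collagens, among which only Col1a2 was called.

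The other matrix genes gave 0 calls among 24 tested, with 4 at an unadjusted p under 0.05 and a median log2 difference of 0.36, which was -0.11 after scaling by the median. Loxl2, which crosslinks collagen, had log2 levels of 3.45 and 3.42 in d1 BC and of 4.86, 4.83 and 5.12 in SM (log2 difference 1.503, SE 0.46, adjusted p = 0.244). Postn, periostin, had log2 levels of 1.59 and 2.85 in d1 BC and of 5.72, 3.97 and 3.74 in SM (log2 difference 2.26, SE 0.88). Dcn and Lum, the proteoglycans decorin and lumican, varied within SM. Lum had log2 levels of -2.81 and -3.04 in d1 BC and of 2.99, -3.05 and 2.38 in SM, so that SM replicate 2 was at the d1 BC level. The summed signal of 5 fibroblast genes (Thy1, Dpt, Dcn, Lum and Fap), listed as markers of feeder cells, was 0.460 and 0.297 in d1 BC and 11.8, 1.04 and 11.2 in SM. Dpt and Fap were above background on no d1 BC array and on 1 SM array. SM replicate 2, with the lowest of these sums in SM, had the highest log2 level of Col1a2 and the lowest of Col3a1 and Col1a1. The part of feeder cells was not tested.

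Pnoc, Cavin2, Ednrb, Adamtsl1, Tshz2 and Fam71a rose too. Pnoc had log2 levels of -4.49 and -4.56 in d1 BC and of 0.41, 1.97 and 0.77 in SM. It rose by 5.57 on the log2 scale (SE 0.62, adjusted p = 0.000754), from a d1 BC level that was above background on 1 of 2 arrays. Cavin2, a coat protein of caveolae, the membrane pits in which smooth muscle and endothelium are rich, had log2 levels of -2.48 and -0.83 in d1 BC and of 3.03, 1.36 and 3.096 in SM. It rose by 4.15 on the log2 scale (SE 0.65, adjusted p = 0.00689). Ednrb, the endothelin B receptor, had log2 levels of -1.66 and -2.12 in d1 BC and of 1.48, 2.34 and 2.60 in SM, a rise of 4.03 (SE 0.62, adjusted p = 0.00599). The 3 SM arrays were close together for Ednrb, whereas Cavin2 was lower on SM replicate 2. Adamtsl1, a secreted matrix glycoprotein, had log2 levels of -6.15 and -5.73 in d1 BC, not above background, and of -1.29, -2.55 and -1.48 in SM. It was at least 8.10-fold higher in SM (adjusted p = 0.00213). Tshz2, a zinc finger gene, and Fam71a were likewise above background on no d1 BC array and at least 6.97-fold (adjusted p = 0.0166) and 10.3-fold higher in SM (adjusted p = 0.0204). Cavin2 was not called without d1 BC replicate 1 (adjusted p = 0.109), nor Ednrb without d1 BC replicate 2 (adjusted p = 0.123). Tshz2 was called only without SM replicate 2 among the fits that left out 1 array, and Fam71a only without SM replicate 1. In HE1, the early hemogenic endothelium, mean log2 levels were 1.77 for Pnoc, 1.81 for Cavin2, 3.15 for Ednrb and -0.86 for Fam71a. Limma called these genes higher in HE1 than in d1 BC too, whereas Adamtsl1 and Tshz2 were not tested there. None of the genes of this paragraph was called between SM and HE1.

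Several genes induced by interferon rose. Of 19 tested genes of the interferon list, 4 rose and 0 fell (Ifit3, Ifit1, Rsad2 and Usp18), against 0.268% of all genes. Ifit3b and Ifih1, also known as interferon-induced, rose too, but they are not on the list, were named after their values were seen and do not count for it. The median log2 difference of the list was 0.81, with 16 of 19 above 0, and it lay between 0.34 and 0.83 with the other backgrounds and scalings. The calls on the list fell to 1 with normexp (Ifit3), 1 with quantile normalization (Usp18), 0 with scaling by the median and 2 in the authors' values (Ifit3 and Isg15). Ifit1 and Rsad2 entered the test only through SM, and with probes above background in both groups 2 of 16 were called (Ifit3 and Usp18). Promoters of these genes are known for the interferon-stimulated response element (ISRE), and the RefSeq windows of 4 called genes (Ifit1, Ifit3, Rsad2 and, from outside the list, Ifih1) are shown to place it. That of Ifit3b, the near-copy of Ifit3, also held 2 matches and is not printed, and Usp18 had no window in the table used. Each window runs from 250 bases before to 50 after 1 start site that the RefSeq table gives for the gene in GRCm38.p6 (for Ifit3 and Mt1 not the outermost), 5′ to 3′ on the strand of the gene, with matches to the ISRE (GAAANNGAAA, both strands) in capitals. The windows are chr19:34640639-34640938 (plus strand) for Ifit1, chr19:34583279-34583578 (plus) for Ifit3, chr12:26456403-26456702 (minus) for Rsad2 and chr2:62646206-62646505 (minus) for Ifih1.
Ifit1: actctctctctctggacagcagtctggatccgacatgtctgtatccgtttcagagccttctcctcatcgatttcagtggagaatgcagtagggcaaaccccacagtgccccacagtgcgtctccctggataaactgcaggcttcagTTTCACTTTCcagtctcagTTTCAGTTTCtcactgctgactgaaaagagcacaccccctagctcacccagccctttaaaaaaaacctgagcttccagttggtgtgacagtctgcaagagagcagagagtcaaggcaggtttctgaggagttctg
Ifit3: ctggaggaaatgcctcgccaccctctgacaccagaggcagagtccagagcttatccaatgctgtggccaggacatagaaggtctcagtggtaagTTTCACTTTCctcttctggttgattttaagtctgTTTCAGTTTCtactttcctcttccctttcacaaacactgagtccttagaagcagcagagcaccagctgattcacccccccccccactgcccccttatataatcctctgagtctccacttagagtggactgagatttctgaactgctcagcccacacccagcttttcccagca
Rsad2: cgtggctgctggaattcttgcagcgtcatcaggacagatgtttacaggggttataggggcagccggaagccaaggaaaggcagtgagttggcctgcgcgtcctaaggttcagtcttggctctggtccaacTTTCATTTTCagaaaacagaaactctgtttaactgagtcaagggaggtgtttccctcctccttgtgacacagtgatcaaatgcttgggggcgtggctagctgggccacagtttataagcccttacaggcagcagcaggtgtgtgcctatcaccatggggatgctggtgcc
Ifih1: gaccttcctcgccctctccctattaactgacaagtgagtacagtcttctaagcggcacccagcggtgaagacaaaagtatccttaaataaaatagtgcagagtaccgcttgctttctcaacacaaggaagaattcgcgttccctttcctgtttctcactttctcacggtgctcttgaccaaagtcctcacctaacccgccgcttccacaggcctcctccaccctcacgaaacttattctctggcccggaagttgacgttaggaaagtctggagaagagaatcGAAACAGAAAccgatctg
Ifit1 and Ifit3 had 2 matches each and Rsad2 and Ifih1 had 1. A match was found for 8 of 19 interferon list genes with a window (42.1%), for 6 of 41 called rises with a window (14.6%) and for 3.99% of all 27025 genes in the table. A match is a description of these letters and not a bound site.

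Ifit1, which binds viral RNA, had log2 levels of -7.10 and -6.66 in d1 BC, not above background, and of -1.99, -3.05 and -2.66 in SM. It was at least 4.67-fold higher in SM (adjusted p = 0.00598). Ifit3 had log2 levels of -4.80 and -3.71 in d1 BC and of 0.19, -0.64 and 0.86 in SM, a rise of 4.39 (SE 0.82, adjusted p = 0.0204). Ifit3 and Ifit3b are near-identical copies and may share signal between their probes. Usp18, which removes ISG15 from proteins, had log2 levels of -3.31 and -3.67 in d1 BC and of 0.48, -0.76 and -0.09 in SM, a rise of 3.37 (SE 0.59, adjusted p = 0.0139). Ifih1, the sensor of viral RNA MDA5, rose by 2.30 on the log2 scale (SE 0.48, adjusted p = 0.0480), with a d1 BC signal above background on 1 of 2 arrays. Rsad2, viperin, was above background on no d1 BC array and was at least 3.55-fold higher in SM (adjusted p = 0.0204). No d1 BC array reached the lowest SM array for any of these genes. Isg15 itself had log2 levels of 0.81 and -0.49 in d1 BC and of 2.75, 2.50 and 2.46 in SM (log2 difference 2.41, SE 0.61, adjusted p = 0.123). Irf1 and the class I gene H2-D1 had log2 differences of -0.54 and -0.71. Without d1 BC replicate 2 none of the 6 genes was called (adjusted p from 0.0578 for Ifit1 to 0.234 for Usp18), although their log2 differences were then 2.87 to 4.93. Ifit3, Rsad2, Usp18 and Ifih1 also lost their call without d1 BC replicate 1, SM replicate 1 or SM replicate 3, and Rsad2 without SM replicate 2.

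A few blood genes rose. Hbb-y, the embryonic beta-like globin, had log2 levels of -2.05 and 0.85 in d1 BC and of 7.07, 2.92 and 5.95 in SM. It rose by 5.91 on the log2 scale (SE 1.06, adjusted p = 0.0153). Globin genes are alike in sequence, and their probes may share signal. Hbb-y was the 1 called gene of 13 tested on the erythroid list, against 0.307% of all genes. The median log2 difference of this list, 2.08, was the largest of the 37 lists in this fit. It was 2.86 without SM replicate 2, but 1.43 with the normexp background. With scaling by the median it was 1.62 and 0 members were called. Hba-x, the embryonic alpha globin, had log2 levels of -2.84 and 0.55 in d1 BC and of 5.64, 1.60 and 6.29 in SM (log2 difference 5.66, SE 1.69, adjusted p = 0.234). Klf1, the transcription factor of red cells, had log2 levels of -6.34 and -2.59 in d1 BC and of -0.33, -2.30 and 0.28 in SM (log2 difference 3.68, SE 0.93, adjusted p = 0.116). The summed signal of 5 erythroid markers was 19.95 and 81.3 in d1 BC and 537, 67.0 and 369 in SM, so that SM replicate 2 lay below d1 BC replicate 2. The part of red cells in the RNA of the SM arrays was not tested. Hbb-y was not called without d1 BC replicate 1 (adjusted p = 0.226), SM replicate 1 (0.0617) or SM replicate 3 (0.0731).

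Tyrobp, a signalling adaptor of myeloid and natural killer cell receptors, had log2 levels of -5.005 and -5.69 in d1 BC, not above background, and of -1.20, -1.03 and -1.15 in SM. It was at least 11.98-fold higher in SM (adjusted p = 0.00213), the largest bound among the called rises, and was not called without d1 BC replicate 2 (adjusted p = 0.0578). Lilrb4a, an inhibitory receptor of myeloid cells, was at least 7.59-fold higher (adjusted p = 0.00213), and Myo1f, an unconventional myosin of blood cells, at least 3.81-fold (adjusted p = 0.00213). Tyrobp was the 1 called gene of 12 tested on the myeloid list, against 0.307% of all genes, but it entered the test only through SM. The median log2 difference of the list was 1.11. With probes above background in both groups 0 of 10 were called and the median was 0.86. Myeloid markers (4) summed to 24.2 and 14.0 in d1 BC and 20.4, 35.6 and 38.8 in SM. Of these, Spi1 was above background on no array and Ptprc on no d1 BC array. Of 17 tested hematopoietic genes 0 were called with limma (5 at an unadjusted p under 0.05, median log2 difference 0.61), and the summed signal of 6 of them was 5.56 and 7.63 in d1 BC and 7.90, 6.83 and 9.14 in SM. The part of myeloid cells was not tested.

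Endothelial genes separated SM replicate 2 from the other SM arrays. Cdh5, VE-cadherin of endothelial junctions, had log2 levels of 0.65 and 0.40 in d1 BC and of -1.12, 4.34 and -0.41 in SM. Ramp2, a receptor activity modifier of endothelium, had log2 levels of 2.35 and 1.68 in d1 BC and of 1.30, 7.01 and 1.71 in SM. The summed signal of 6 endothelial markers was 20.4 and 12.6 in d1 BC and 15.3, 64.5 and 12.9 in SM. Of 21 tested endothelial genes 0 were called (1 at an unadjusted p under 0.05). Their median log2 difference was 0.53 over all arrays, -0.52 without SM replicate 2, -0.75 within the shared slide and 2.59 within the shared scan day, which holds SM replicate 2. Emcn was above background on no d1 BC array.

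Mesoderm markers (4) summed to 7.14 and 4.19 in d1 BC and 2.77, 1.82 and 1.55 in SM, and that of 5 pericyte markers was 21.9 and 14.6 in d1 BC and 7.03, 13.6 and 9.48 in SM. Both sums were lower on every SM array, although the wider mesoderm and pericyte lists had median log2 differences of 0.42 (-0.043 with scaling by the median) and 0.61. Mixl1 was above background on no SM array and Kcnj8 on no d1 BC array. Markers of pluripotent cells summed to 1.74 and 0.790 in d1 BC and to 3.70, 1.78 and 3.08 in SM. The wider pluripotency list had a median log2 difference of -0.04, with 9 members above 0 and 9 below.

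**Figure D3:**
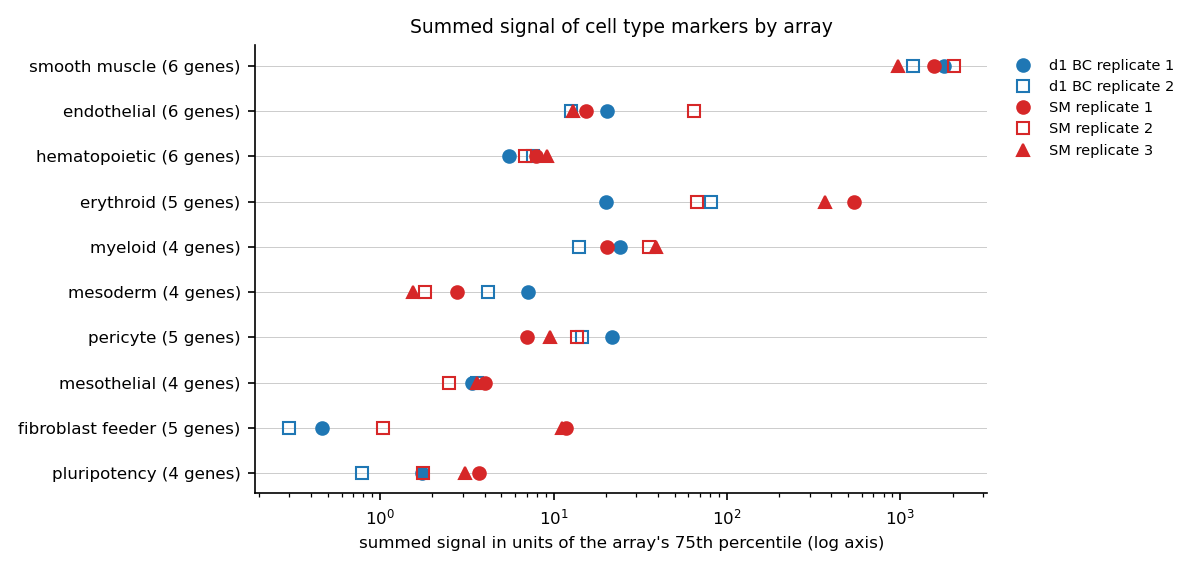
Summed signal of the markers of each cell type (x axis, log scale, in units of the 75th percentile of the array) on the 2 d1 BC arrays (blue) and 3 SM arrays (red). Smooth muscle markers overlap between groups, erythroid and fibroblast markers are highest on SM replicates 1 and 3, and endothelial markers are highest on SM replicate 2.

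Metallothioneins, which bind zinc and copper, rose. Mt1 had log2 levels of -0.23 and -0.47 in d1 BC and of 3.49, 2.36 and 3.53 in SM, a rise of 3.48 (SE 0.52, adjusted p = 0.00512). Mt2 had log2 levels of 0.24 and 0.14 in d1 BC and of 3.14, 1.94 and 3.47 in SM, a rise of 2.66 (SE 0.56, adjusted p = 0.0480). The 2 genes are close relatives, and their probes may share signal. Mt1 was not called without d1 BC replicate 2 (adjusted p = 0.107), and Mt2 of the fits without 1 array was called only without SM replicate 2. The window of Mt1 at chr8:94178839-94179138 (GRCm38.p6, plus strand, RefSeq) is shown because metal response elements are the known feature of this promoter, with TGCACNC or TGCGCNC on either strand in capitals.
Mt1: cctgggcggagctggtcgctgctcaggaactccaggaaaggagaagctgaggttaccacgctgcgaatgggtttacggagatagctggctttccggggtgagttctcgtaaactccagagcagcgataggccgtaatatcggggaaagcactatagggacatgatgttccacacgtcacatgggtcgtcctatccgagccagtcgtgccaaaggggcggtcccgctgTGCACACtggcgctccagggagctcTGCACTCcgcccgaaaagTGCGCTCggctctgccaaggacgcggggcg
It held 3 matches and that of Mt2 4. At least 1 match was found in 28.2% of all genes with a window, so these short letters alone are common.

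Fosb, of the AP-1 list, and Egr1 and Egr2, of the stress list, rose. Fosb, a FOS family member of the AP-1 factors, had log2 levels of 1.25 and -0.01 in d1 BC and of 3.51, 3.95 and 4.17 in SM, a rise of 3.26 (SE 0.62, adjusted p = 0.0232). Egr1, a zinc finger factor induced early by growth factors and stress, had log2 levels of 1.63 and 2.31 in d1 BC and of 4.26, 4.04 and 4.30 in SM, a rise of 2.23 (SE 0.42, adjusted p = 0.0204). Egr2 rose by 3.82 on the log2 scale (SE 0.68, adjusted p = 0.0151), from a d1 BC level above background on 1 of 2 arrays. For all 3 genes every SM array was above both d1 BC arrays. Fosb was called only without d1 BC replicate 1 among the fits without 1 array and Egr1 only without SM replicate 2. Egr2 lost its call without d1 BC replicate 2 (adjusted p = 0.524) and without SM replicate 1 or 3.

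Of 14 tested AP-1 genes Fosb was the 1 called, against 0.307% of all genes. The median log2 difference was 0.15, or -0.31 after scaling by the median. Fos had log2 levels of 3.07 and 2.72 in d1 BC and of 4.52, 4.72 and 3.74 in SM (log2 difference 1.43, SE 0.73, adjusted p = 0.771). Jun had log2 levels of 5.26 and 4.51 in d1 BC and of 5.70, 6.78 and 5.80 in SM (log2 difference 1.21, SE 0.49, adjusted p = 0.560). Fosl1, FRA1, was on the low side with log2 levels of -1.71 and -2.30 in d1 BC and of -5.03, -2.83 and -3.75 in SM, above background on 1 SM array (log2 difference -1.86, SE 0.74, adjusted p = 0.531).

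Genes that the study names as bound by AP-1 or changed by dnFOS, with both Tgfb1 and Tgfb2 entered for its Tgfb, gave 0 calls of 21 tested with limma, and 0 at an unadjusted p under 0.05. That list was drawn from these cells by the study and is no independent evidence of direction. Their median log2 difference was -0.16, with 7 above 0 and 14 below. Hbegf, an EGF family ligand, had log2 levels of 3.82 and 4.05 in d1 BC and of 2.90, 3.48 and 1.84 in SM (log2 difference -1.19, SE 0.67, adjusted p = 0.841). Some of the others were Ccn2 (0.69), Col1a1 (0.63), Tgfb2 (0.30), Pdgfc (0.17), Vegfa (-0.03), Axl (-0.16), Wt1 (-0.56), Bmp2 (-0.91) and Cdkn2b (-1.07) as log2 differences. The TEAD factors of the Hippo pathway and their partner YAP gave 0 calls of 15 tested (2 at an unadjusted p under 0.05), with a median log2 difference of -0.25. Tead4 had log2 levels of 1.48 and 0.67 in d1 BC and of -0.37, 0.41 and -0.73 in SM (log2 difference -1.31, SE 0.55, adjusted p = 0.593), and Yap1 had a log2 difference of -0.46 (SE 0.50). Vgll2, a cofactor of TEAD, had log2 levels of 1.04 and 1.59 in d1 BC and of 3.88, 2.11 and 4.16 in SM (log2 difference 2.07, adjusted p = 0.586). TEAD target genes gave 0 calls of 15 tested, 0 at an unadjusted p under 0.05 and a median of -0.26.

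Of the 9 falls, Myl7 was on the cardiac list, and Nppa and Trim54, also known from striated muscle, were named after their values were seen. Myl7 had log2 levels of 2.17 and 1.97 in d1 BC and of -1.86, -2.03 and -1.47 in SM. It fell by 3.86 on the log2 scale (SE 0.56, adjusted p = 0.00418). Nppa, the precursor of atrial natriuretic peptide, had log2 levels of 0.39 and 1.12 in d1 BC and of -1.88, -1.44 and -2.32 in SM, and it fell by 2.63 on the log2 scale (SE 0.46, adjusted p = 0.0133). Trim54, a ring finger protein of striated muscle, had log2 levels of 1.22 and 0.39 in d1 BC and of -2.18, -2.50 and -2.06 in SM, and it fell by 3.05 on the log2 scale (SE 0.64, adjusted p = 0.0480). The promoter window of Myl7 (chr11:5898733-5899032, GRCm38.p6, minus strand, RefSeq) is shown because it held a CArG box, here in capitals, as did 1.81% of all genes with a window and 3 of 16 contractile genes with one.
Myl7: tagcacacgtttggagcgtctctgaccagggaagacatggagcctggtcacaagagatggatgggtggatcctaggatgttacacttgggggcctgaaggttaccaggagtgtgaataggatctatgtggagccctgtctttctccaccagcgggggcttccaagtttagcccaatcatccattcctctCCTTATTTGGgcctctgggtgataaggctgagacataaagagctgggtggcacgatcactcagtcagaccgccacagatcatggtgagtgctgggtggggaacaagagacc
Of 20 tested cardiac and lateral mesoderm genes Myl7 was the 1 called, against 0.307% of all genes, and the median log2 difference was -0.18. Tbx3 had log2 levels of 4.69 and 4.33 in d1 BC and of 2.01, 2.42 and 2.49 in SM (log2 difference -2.20, SE 0.54, adjusted p = 0.107), whereas Hand2 had log2 levels of -1.18 and -0.37 in d1 BC and of 1.74, 3.46 and 1.66 in SM (log2 difference 3.06, SE 0.72, adjusted p = 0.0988). Both are transcription factors of heart and limb. Actc1, cardiac actin, had a log2 difference of -0.92 and Tnnt2, cardiac troponin T, of -0.54, and neither was called. Myl7 lost its call without d1 BC replicate 2 (adjusted p = 0.0542), as did Nppa (0.320), which also lost it without SM replicate 3. Trim54 lost it without each of the 5 arrays.

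Nxph2 had log2 levels of -0.51 and -1.16 in d1 BC and was above background on no SM array. It was at least 13.1-fold lower in SM (adjusted p = 0.00213). Foxh1, the partner of SMAD2 in nodal signalling, had log2 levels of 2.99 and 2.93 in d1 BC and of 0.51, 0.73 and 1.22 in SM, and it fell by 2.14 on the log2 scale (SE 0.36, adjusted p = 0.0115). Calca, the precursor of calcitonin and CGRP, fell by 2.94 on the log2 scale (SE 0.49, adjusted p = 0.0109), and its other probe had a log2 difference of -1.37. The remaining falls were those of Arhgap36 (log2 difference -2.60, adjusted p = 0.0199), D7Ertd143e (-2.44, adjusted p = 0.0151) and the olfactory receptor gene Olfr591, at least 6.27-fold lower in SM (adjusted p = 0.0406). Calca lost its call without either d1 BC array. Foxh1 lost it without either d1 BC array or SM replicate 1, Arhgap36 and D7Ertd143e without either d1 BC array or SM replicate 3, and Olfr591 was called only without SM replicate 2.

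Other rises fell to single members of their lists. Tgfbr3, betaglycan, which presents TGF-beta ligands, had log2 levels of -0.26 and 0.12 in d1 BC and of 2.33, 1.67 and 2.57 in SM. It rose by 2.26 on the log2 scale (SE 0.46, adjusted p = 0.0406). Among 28 TGF-beta and BMP genes tested (list median 0.34) it was the 1 call, against 0.307% of all genes. Tcf21, a bHLH factor of epicardial and other mesenchyme, was above background on no d1 BC array and had log2 levels of -4.03, -2.12 and -3.29 in SM. It was at least 3.12-fold higher in SM (adjusted p = 0.0115) and the 1 call of 16 mesothelial and epicardial genes tested, against 0.307% of all genes. Tcf21 entered the test only through SM, and with probes above background in both groups 0 of 12 were called. The median of the list was 0.26, but -0.24 with those probes, and it was also below 0 with quantile or median scaling and in the authors' values. Tgfbr3 was called only without SM replicate 2 among the fits without 1 array, and Tcf21 lost its call without d1 BC replicate 2 (adjusted p = 0.227). Mesothelial markers (4) summed to 3.37 and 3.61 in d1 BC and 4.02, 2.51 and 3.63 in SM, all above background, and did not separate the groups. Rarres2, the precursor of chemerin, rose by 3.16 on the log2 scale (SE 0.62, adjusted p = 0.0269), and Cyp26b1, which degrades retinoic acid, by 2.31 (SE 0.48, adjusted p = 0.0433). Enpp2, autotaxin, was at least 7.47-fold higher (adjusted p = 0.0269), Spon1, a spondin of the matrix, at least 7.54-fold (adjusted p = 0.0232) and Hpgd, which inactivates prostaglandins, at least 4.57-fold (adjusted p = 0.0156). Genes of fuel use were Slc2a4, the insulin-regulated glucose transporter (log2 rise 2.42, adjusted p = 0.0317), and Cpt1a, which takes fatty acids into mitochondria (log2 rise 2.89, adjusted p = 0.0153, above background on 1 d1 BC array). Without d1 BC replicate 2 none of these 7 genes was called. Of the 5 fits without 1 array, Cyp26b1 was called in 0, Rarres2, Spon1, Hpgd and Slc2a4 in 1, Enpp2 in 2 and Cpt1a in 3.

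Of the 62 rises, 55 had a gene symbol and 7 did not, and the d1 BC probe was above background on both arrays for 27, on 1 array for 9 and on none for 26. For the 26 the lower bounds of the fold ran from 1.71 for Nckap5 to 11.98 for Tyrobp. The remaining named rises were Cryaa, Ndrg2, Cpz, Phactr2, Bmf, Rab3d, Sh3gl3, Ldb2, Thsd7a and Tent5c, with log2 rises from 2.18 for Tent5c to 3.71 for Cryaa, a lens crystallin, and Selenbp1, Pipox and Niban1, with log2 rises from 2.89 to 3.54 and a d1 BC signal above background on 1 array. Bounds were given by Adgrg5, Pla2g1b, Cp, Mctp1, Pld5, Depp1, Camk4, Fmo5, Pcdhb20, Lrtm1 and Nckap5. Among them Pld5 was at least 10.0-fold higher (adjusted p = 0.0269) and Cp, the copper carrier ceruloplasmin, at least 3.94-fold (adjusted p = 0.0157). Without 1 array, Ldb2, Thsd7a and Tent5c were called in 0 of the 5 fits, and Cryaa, Cpz, Phactr2, Bmf, Sh3gl3, Pld5 and Pcdhb20 in 1. The others of these genes were called in 2 to 4, and Adgrg5 in 5. Different probes of 1 gene did not always agree. Log2 differences ranged over probes from 0.20 to 2.76 for Fmo5 and from 1.44 to 2.84 for Phactr2.

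Hox genes, which set position along the body axis, gave 0 calls of 17 tested and 7 at an unadjusted p under 0.05, as had 1600 of all 23106 genes. Their median log2 difference was 0.59, with 15 of 17 above 0, and 0.50 with 10 of 12 above 0 among genes above background in both groups. After scaling by the median it was 0.13, with 11 of 17 above 0. Hoxc9 was above background on no d1 BC array and had log2 levels of 1.26, -2.12 and 1.20 in SM, at least 25.6-fold higher (adjusted p = 0.107), and it was called without SM replicate 2, with slide as a block and with array quality weights. Hoxc6 and Hoxc8 were likewise not above background in d1 BC, at least 13.9-fold (adjusted p = 0.180) and 4.74-fold higher in SM (adjusted p = 0.187). Hoxb2, from the anterior end of its cluster, had a log2 difference of -0.02.

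Genes of cell division had a median log2 difference of -0.46, with 27 of 30 tested members below 0, 0 called and 1 at an unadjusted p under 0.05. All SM arrays were below both d1 BC arrays for 9 of the 30, against 9.61% of all genes tested. Top2a, the topoisomerase of dividing cells, had log2 levels of 3.39 and 4.15 in d1 BC and of 2.97, 2.10 and 2.12 in SM (log2 difference -1.37, SE 0.57, adjusted p = 0.593). Mki67 had a log2 difference of -0.18 (SE 0.43). The median of the list was -0.72 within the shared slide and 0.02 within the shared scan day.

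Across all lists, 13 members were called. The lists held 6 to 30 tested members each, and 0.307% of all 23106 genes tested were called. Medians of the uncalled lists ran from -0.47 for contractile genes to 1.15 for fibroblast feeder genes. Near 0 were the Wnt (0.05), integrin (0.10), chemokine and cytokine (0.11), cholesterol synthesis (0.14), cell cycle inhibitor (0.16), PDGF, FGF and VEGF (0.21), definitive endoderm (0.27), mesenchymal transition (0.34) and megakaryocyte (0.34) lists, and pluripotency (-0.04), actin and adhesion (-0.20) and glycolysis genes (-0.21) below. Stress response genes had a median of 0.15 with Egr1 and Egr2 called. Higher medians were those of endothelial transcription factors (0.37), mesoderm (0.42), matrix proteases (0.54), Notch (0.60) and pericyte genes (0.61), all as log2 differences with 0 members called. The median of endothelial transcription factors was -0.39 without SM replicate 2, -0.68 within the shared slide and 2.26 within the shared scan day. Cxcl12, a chemokine of perivascular cells, had log2 levels of 1.09 and 2.01 in d1 BC and of 6.20, 3.24 and 5.97 in SM (log2 difference 3.58, SE 1.18, adjusted p = 0.324). Mmp9, a gelatinase, had log2 levels of -1.55 and -1.65 in d1 BC and of -3.81, -4.21 and -3.11 in SM (log2 difference -2.11, SE 0.55, adjusted p = 0.136).

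**Figure D4:**
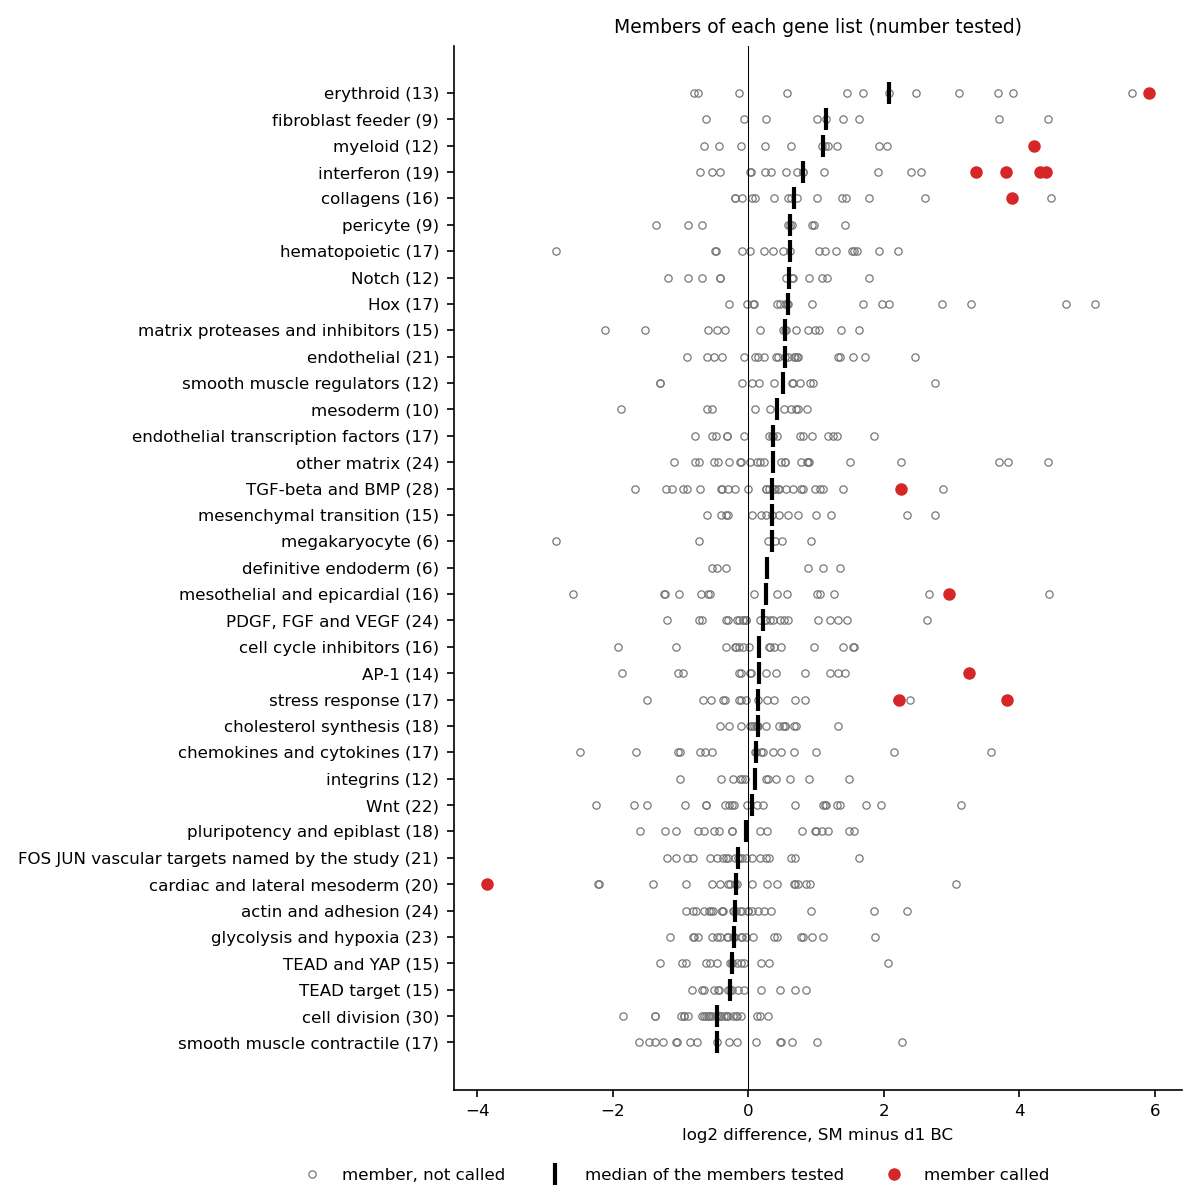
Log2 difference (x axis, SM minus d1 BC) of every tested member of each gene list, with called members in red, others as open circles and the median as a black bar, lists ordered by their median. Erythroid genes are centred at 2.08 and contractile genes at -0.47, and called members are few in every list.

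The genes were followed through the other untreated populations, with levels given as means on the log2 scale of 2 arrays each (3 for SM). Acta2 was at 1.26 in freshly purified FLK1+ cells, 5.10 after 5 h, 9.09 in d1 BC and 9.57 in SM. Col1a2 was at 0.83 in FLK1+ cells, -0.48 at 5 h, 2.33 in d1 BC and 6.23 in SM, and at 5.45 in HE1, the early hemogenic endothelium (KIT+TIE2+CD41-). Myl7 was at 2.47, 2.84 and 2.07 in the first 3 populations, at -1.79 in SM and not above background in HE1. Mt1 was at 3.70 in FLK1+ cells and 3.51 at 5 h, low in d1 BC at -0.35 and at 3.13 in SM, so that d1 BC was the lowest point. Usp18 (2.33, 1.92, -3.49 and -0.12) and Egr2 (0.01, -1.02, -5.02 and -1.20) were also lowest in d1 BC and below the FLK1+ level in SM. For Egr1 (2.74, 1.88, 1.97 and 4.20), Fosb (-3.11, -1.14, 0.62 and 3.88) and Ifit3 (-6.47, -7.35, -4.26 and 0.13) SM was the highest of the 4. Tyrobp stood at -1.13 in SM and -1.16 in HE1 but at 2.98 in HE2 (KIT+TIE2+CD41+) and 5.41 in HP (KIT+TIE2-CD41+), and Ifit1 at -2.57 in SM, -3.23 in HE1 and -0.73 in HP. These levels are a description, with no test.

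**Figure D5:**
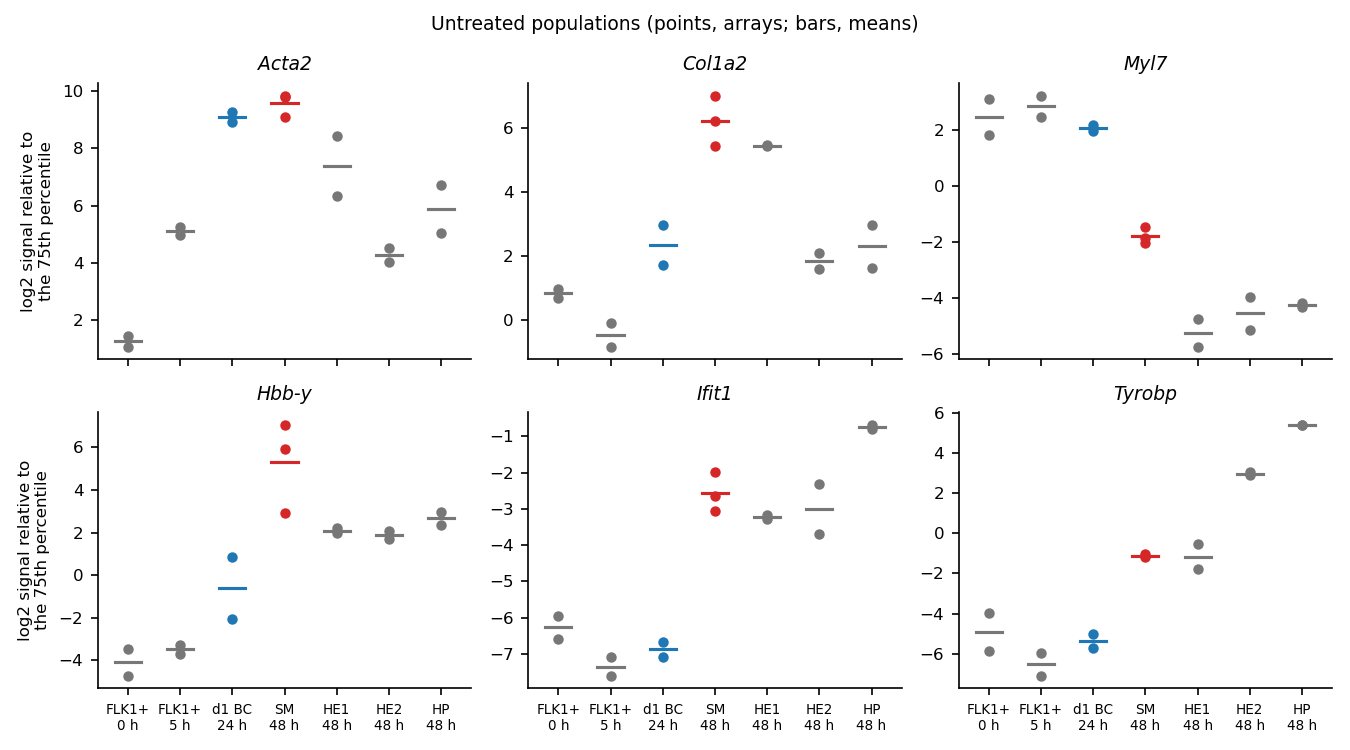
Log2 signal relative to the 75th percentile of the array (y axis, scaled per panel) in the 7 untreated populations (x axis, with hours of blast culture), points for arrays and bars for means, d1 BC in blue and SM in red. Acta2 overlaps between d1 BC and SM, Col1a2 and Hbb-y are highest in SM, and Tyrobp is highest in HP.

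SM was also set against HE1, a population sorted from the same stage of culture. That contrast equals the difference between the steps from d1 BC to SM and from d1 BC to HE1, and the comparisons share arrays. Of 23406 genes tested, 152 (0.649%) were higher in SM than in HE1 and 97 (0.414%) lower, and HE1 differed from d1 BC in 531 genes upward (2.25%) and 402 downward (1.71%) of 23573. Genes higher in SM made up 61.0% of the calls against HE1, and 44.4% with scaling by the median or 50.7% with untreated arrays alone. Myl7 and Arhgap36 were above background on no HE1 array, so their differences to HE1 are bounds. Myl7 was at least 3.92-fold higher in SM than in HE1 (adjusted p = 0.0116) and at least 56.9-fold higher in d1 BC than in HE1. Arhgap36 was at least 3.85-fold higher in SM (adjusted p = 0.0116) and at least 23.4-fold higher in d1 BC than in HE1. Ldb2, a LIM domain cofactor, lay 3.59 lower in SM on the log2 scale (-3.59, adjusted p = 0.00467), with log2 differences to d1 BC of 2.22 in SM and 5.81 in HE1. Kit, the stem cell factor receptor, had a log2 difference of -4.04 between SM and HE1 (adjusted p = 0.0116), but HE1 was sorted on its protein, so that this is no finding. These calls hung on single arrays. Without SM replicate 2 the counts were 349 higher and 376 lower, whereas they were 0 and 0 without SM replicate 3 (1756 genes at an unadjusted p under 0.05), 0 and 1 without SM replicate 1 or HE1 replicate 2, and 117 and 9 without HE1 replicate 1.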

How the data were processed

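RNA was labelled and hybridised to one-colour Agilent mouse arrays by the authors, who deposited the scanner files of Feature Extraction (version 10.7.3.1 per the file headers and 10.7.1.1 per the submitters' notes) and a table of log2 values. The deposited intensity used here was the processed signal (background-subtracted, linear scale). The authors' log2 values, processed with limma, served as an alternative. The log2 of the processed signal minus the 75th percentile of each array was computed, control spots were left out, as were outlier spots unless every spot of a probe was one, and the probe with the highest mean stood for a gene. A gene entered a comparison if every array of one group, or of the other, had its probe flagged well above background. One fit with 13 group means over 27 arrays was made in limma 3.58.1 (R 4.3.3), with eBayes and Benjamini-Hochberg adjustment. A call needed an adjusted p under 0.05 and at least 2-fold. Where a probe was not well above background on any array of a group, the fold is a bound: the mean of the other group over, per array, the higher of the lowest signal well above background and the signal of the dim probe. The number of arrays limits the precision. Of 55681 probes, 26582 carried a symbol.

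Named genes were the 12 largest rises and falls by fitted difference among called genes with separate arrays, in each of 37 lists up to 3 called members either way or else the member with the largest change, the list of AP-1 targets and the cell type markers. A few genes that the rule chose are not reported here. Genes named beyond that rule were chosen after their values were seen. The members and lists were chosen with earlier results of these data known. Promoter windows came from RefSeq (GRCm38.p6), and motifs were searched on both strands. The scripts were tested on simulated data. Alternatives were the background correction, scaling, filter on dim probes, probe choice, slide, scan day, replicate number, arrays in the fit, variance model, thresholds and leaving out each array. Scan day, the list counts by array, slide, scan day, replicate, arrays in the fit and variance model were added after the data had been seen.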

Additional observations from a re-analysis of the deposited data

Results flagged for a closer look

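The steps from d1 BC to SM and to HE1 share the d1 BC arrays, so the difference between them is the contrast of SM with HE1, tested with limma. Among the genes that the naming rule chose it passed the threshold for 14 reported here. Myocd, named outside that rule, was also higher in SM than in HE1 (2.62, adjusted p = 0.0453). Higher in SM than in HE1 on the log2 scale were Gata1, a transcription factor of red cells and megakaryocytes (3.77, adjusted p = 0.0247), and the angiopoietin gene Angpt1 (3.15, adjusted p = 0.0385). Myl7 and Arhgap36, above background on no HE1 array, were at least 3.92-fold and 3.85-fold higher (adjusted p = 0.0116 for both). The growth factor gene Pdgfc was higher by 2.79 (adjusted p = 0.0379), Tgfb2 by 2.66 (adjusted p = 0.0261), annexin Anxa1 by 2.57 (adjusted p = 0.0431) and the pericyte gene Rgs5 by 2.27 (adjusted p = 0.0486). Lower in SM were the endothelial receptor Tie1 (-4.58, adjusted p = 0.0261), Kit (-4.04, adjusted p = 0.0116), Ldb2 (-3.59, adjusted p = 0.00467), Igf1 (-3.32, adjusted p = 0.0499), Sh3gl3 (-2.16, adjusted p = 0.0219) and Cyp26b1 (-2.06, adjusted p = 0.0455). HE1 was sorted on KIT and TIE2. Of the 14, Myl7 and Arhgap36 fell and Cyp26b1, Ldb2 and Sh3gl3 rose from d1 BC to SM. For Tgfb2 and Pdgfc the log2 difference of SM to d1 BC was 0.30 and 0.17, and that of HE1 to d1 BC was -2.36 and -2.62. Over all genes, calls against HE1 came to 0 or 1 in all without SM replicate 1, SM replicate 3 or HE1 replicate 2.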

How the results depend on the processing

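No called gene changed sign in any refit. All 71 were called on these same arrays, with the SM arrays wholly on 1 side of d1 BC, so that this adds no support. Of 82 uncalled named genes, 0 to 12 did in a refit, 9 within the shared slide and 20 within the shared scan day. The median changed sign in at least 1 refit for 23 of 37 gene lists, 16 of them with scaling by the median, 7 with slide as a fixed block (the endothelial median, 0.53, went to -0.95) and 5 without SM replicate 2 (-0.52). Counts from d1 BC to SM (62 higher and 9 lower) are given below as higher and lower. They were 26 and 8 with the normexp background, 49 and 25 with quantile normalization, 6 and 5 with scaling by the median, 48 and 26 in the authors' processed values, 32 and 6 without a filter on dim probes, 19 and 6 with probes above background in both groups, 1.1e+02 (rounded) and 17 with slide as a fixed block, 228 and 37 as a random block, 213 and 32 with scan day as a block, 42 and 4 with untreated arrays alone, 336 and 80 with array quality weights, and 19 and 2 at an adjusted p under 0.01. The 2 groups alone gave 0 and 0 in limma, with 1576 genes at an unadjusted p under 0.05. With scaling by the median the median log2 difference of all genes was -0.446, against 0.02. Of the 71 called genes, 11 were still called with scaling by the median, 28 with normexp, 35 in the authors' values, 39 with quantile normalization, 36 without a filter, 42 with untreated arrays alone, 44 with slide as a fixed block, 70 as a random block and 71 with scan day as a block or array quality weights. Without 1 array the counts ranged from 13 to 78 higher and from 4 to 55 lower. Against HE1 (152 and 97), they were 104 and 57 with normexp, 255 and 238 with quantile normalization, 48 and 60 with scaling by the median, 364 and 305 in the authors' values, 35 and 23 without a filter, 73 and 54 with probes above background in both groups, 308 and 171 with slide as a fixed block, 654 and 344 as a random block, 346 and 194 with scan day, 76 and 74 with untreated arrays alone, 608 and 465 with array quality weights, 0 and 1 at an adjusted p under 0.01, and 0 and 0 with the 2 groups alone (1979 at an unadjusted p under 0.05). Without 1 array they ranged from 0 to 349 higher and from 0 to 376 lower. List members called (13) came to 3 with scaling by the median, 8 without a filter, 7 with probes above background in both groups, 21 with slide as a fixed block, 32 as a random block, 26 with scan day as a block, 52 with array quality weights, 0 with the 2 groups alone, and 3 to 18 without 1 array (3 without d1 BC replicate 2 and 18 without SM replicate 2). The cause of these differences was not tested. Nothing in the labels says that replicate numbers pair the samples. Deviations of same-numbered arrays correlated at -0.359 and -0.297, which cannot settle it, since with 2 d1 BC arrays the other pairs mirror these, at 0.297 for d1 BC replicate 1 with SM replicate 2 (same scan day) and 0.359 for d1 BC replicate 2 with SM replicate 1 (same slide). With the replicate number as a block the counts were 27 and 4 from d1 BC to SM, 16 and 5 against HE1 and 6 list members, and 29 of the 71 called genes were still called. Probes near background limit what was measured, and 26 of the 62 rises are bounds.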
